A study of Homo sapiens with 2 samples.

Results

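The 8 genes described here encode the scaffold, sensor, adaptor and protease proteins that carry a caspase recruitment domain (CARD), or act directly with one that does, on the route to NF-kB. They were CARD6, CARD8, CARD9, CARD10, CARD14, BCL10, MALT1 and NOD1, taken by name from the deposited tables with every probe that carries the name, which gave 13 of 58201 probes and 8 of 43270 genes and transcripts. The genes were selected on their names, but the set was chosen by a reader of the R-HL60 against HL60 signal differences of these same arrays, so those differences are given as a description. R-HL60 is a cytarabine-resistant line obtained by growing HL60 under continuous, rising cytarabine, and HL60 is its parental acute myeloid leukaemia line, grown without the drug. Cytarabine is a deoxycytidine analogue that blocks DNA synthesis. Both lines were kept in the same serum-supplemented medium, and the labels do not state whether R-HL60 is 1 clone or whether the drug was present at harvest. Each line was measured on 1 one-colour Agilent array, so no difference has a replicate check or a p-value, and the line and the array cannot be told apart.

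CARD9, CARD10 and CARD14 are scaffolds: when phosphorylated by protein kinase C they open and seed filaments of the adaptor BCL10, which holds the paracaspase MALT1. The complex recruits TRAF6 to activate the IkB kinases, and MALT1 also cuts several negative regulators of inflammatory signalling. CARD9 is the scaffold of myeloid cells, downstream of C-type lectin receptors, CARD14 is known from keratinocytes and CARD10 from G protein-coupled receptor signalling in cells outside the blood. NOD1 is a cytosolic sensor of bacterial peptidoglycan that recruits the kinase RIPK2 through its CARD. CARD8 is an inflammasome sensor that engages caspase-1, and CARD6 is a CARD protein that can bind RIPK2.

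CARD10 was the member that stood apart, with a signal 3.36-fold lower in R-HL60. No other member reached 2-fold in either direction. The next differences were those of MALT1 and NOD1, which were 1.44-fold and 1.40-fold higher in R-HL60. CARD9, CARD8, CARD6 and CARD14 gave nearly equal signals in both lines, and the single BCL10 probe lay below the floor on both arrays. The 1 of 7 measured members at least 2-fold different compares with 1.08% of the 23531 genes that cleared the floor in either line, and with 0.297% for genes at least 2-fold lower. Because the members were chosen with these values known, nothing is read from that count.

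Signals are linear intensities. The floor was each array's median signal, 32.8 for R-HL60 and 30.7 for HL60, since no detection flags came with the values. Differences are log2 values, R-HL60 minus HL60, after each array was scaled to its own 75th percentile, which was 294 for R-HL60 and 292 for HL60. For the 21839 genes that cleared it in both lines, the median difference was -0.03, with an SD of 0.29 across genes. The only repeated measurement was that by several probes of a gene: in 4724 such genes the SD between probes was 0.19, which does not include any variation between cultures or arrays. The promyelocytic identity of the lines was visible in both: all 7 promyelocyte markers lay above the floor, among them MPO at 285746 in R-HL60 and 309491 in HL60. ELANE was the marker that differed most, at 153 in R-HL60 and 700 in HL60.

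The promoter windows of 4 members are shown to set the member with the largest difference beside the next 2 and beside CARD9, the myeloid scaffold that did not differ. They are RefSeq windows of GRCh38.p14 from 250 bases before to 50 bases after the annotated start, given 5′ to 3′ on the gene's strand. The windows are chr22:37519366-37519665 on the minus strand for CARD10, chr18:58671215-58671514 on the plus strand for MALT1, chr7:30478735-30479034 on the minus strand for NOD1 and chr9:136373620-136373919 on the minus strand for CARD9. Capitals mark a match to the NF-kB (kappaB) consensus on either strand; a sequence without capitals had none.
CARD10: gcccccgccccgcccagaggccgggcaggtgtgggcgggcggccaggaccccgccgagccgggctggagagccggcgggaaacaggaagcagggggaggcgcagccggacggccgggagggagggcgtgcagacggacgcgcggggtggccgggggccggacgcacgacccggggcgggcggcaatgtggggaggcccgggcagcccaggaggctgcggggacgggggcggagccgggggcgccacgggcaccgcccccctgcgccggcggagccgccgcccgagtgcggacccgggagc
MALT1: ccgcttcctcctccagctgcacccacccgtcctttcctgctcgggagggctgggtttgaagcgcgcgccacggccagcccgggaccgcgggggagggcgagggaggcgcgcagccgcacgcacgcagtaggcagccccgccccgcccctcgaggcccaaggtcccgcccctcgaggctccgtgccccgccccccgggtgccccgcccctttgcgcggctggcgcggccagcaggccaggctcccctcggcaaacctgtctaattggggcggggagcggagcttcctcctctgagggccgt
NOD1: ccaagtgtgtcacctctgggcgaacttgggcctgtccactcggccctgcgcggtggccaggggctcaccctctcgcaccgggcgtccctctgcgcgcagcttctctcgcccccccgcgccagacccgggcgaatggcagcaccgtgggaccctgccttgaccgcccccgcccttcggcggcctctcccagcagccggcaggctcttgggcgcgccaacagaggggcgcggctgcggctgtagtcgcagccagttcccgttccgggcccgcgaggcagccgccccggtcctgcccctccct
CARD9: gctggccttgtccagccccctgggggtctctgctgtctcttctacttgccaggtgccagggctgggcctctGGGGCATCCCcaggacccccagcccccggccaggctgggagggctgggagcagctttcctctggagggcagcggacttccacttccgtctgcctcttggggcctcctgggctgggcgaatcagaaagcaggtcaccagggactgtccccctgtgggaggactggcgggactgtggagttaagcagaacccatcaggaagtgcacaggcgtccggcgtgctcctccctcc
The CARD10 window had a GC content of 83.3% and 42 CpG dinucleotides, against 67.0% and 8 for CARD9. MALT1 had 33 CpG dinucleotides, and NOD1 and BCL10 had 32 each, where the median window of 35116 held 14. The kappaB consensus was found in 5.91% of all windows of this length. Among the 7 members searched, all but CARD14, it was found in the CARD9 window and in 1 of the 5 annotated start windows of CARD8. The AP-1 motif TGACTCA, searched on both strands without overlap with the other motif, was found in the CARD6 window and in 4.95% of all windows. A match describes these letters and is not a measured binding site, and which start site these lines use was not measured.

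Among the scaffolds, CARD10 had a signal of 162 in R-HL60 and 541 in HL60. The R-HL60 value was still 4.93 times the floor of its array, and the HL60 value was 17.6 times the floor. The log2 difference was -1.75, the 14th lowest of 21839 genes measured on both arrays, and 0.188% of those genes had a difference of that size in either direction. Among the 3343 genes of like brightness the share was 0.299%, and the probe-to-probe SD at this brightness was 0.15. CARD10 rested on 1 probe, so agreement between probes could not be examined. In the authors' normalized table it stood at 161 in R-HL60 and 542 in HL60. With 50 units added to every signal, a setting that pulls the folds of dim probes towards 1, it was 2.80-fold lower.

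CARD9, the scaffold that myeloid cells use, had 2 probes above the floor. The brighter gave 9539 in R-HL60 and 9208 in HL60, a log2 difference of 0.04. The other gave 502 in R-HL60 and 518 in HL60, a difference of -0.05. The gap between these probes was 0.10, so no difference between the lines was visible beyond the probes' own spread. CARD14 had 1 measured probe, with 275 in R-HL60 and 295 in HL60 and a difference of -0.11, inside the SD of 0.21 at its brightness. Its other probe was below the floor on both arrays, at 25.4 in R-HL60 and 20.1 in HL60. CARD10 was thus the scaffold with a difference past 2-fold, but the difference between scaffolds was not tested.

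BCL10 and MALT1 form the core that the scaffolds share. The BCL10 probe gave 2.68 in R-HL60 and 2.05 in HL60, 0.081 times the floor in R-HL60 and 0.067 times in HL60, so these arrays give no level and no fold for BCL10. MALT1 gave 93.5 in R-HL60 and 64.7 in HL60 on its single probe, a log2 difference of 0.52. Both values were close to the floor, at 2.85 times in R-HL60 and 2.11 times in HL60. The difference was 1.88 times the probe-to-probe SD of 0.28 for probes this dim, and 11.1% of the 5861 genes of like brightness differed as much. With 50 units added the difference was 0.32.

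**Figure D1:**
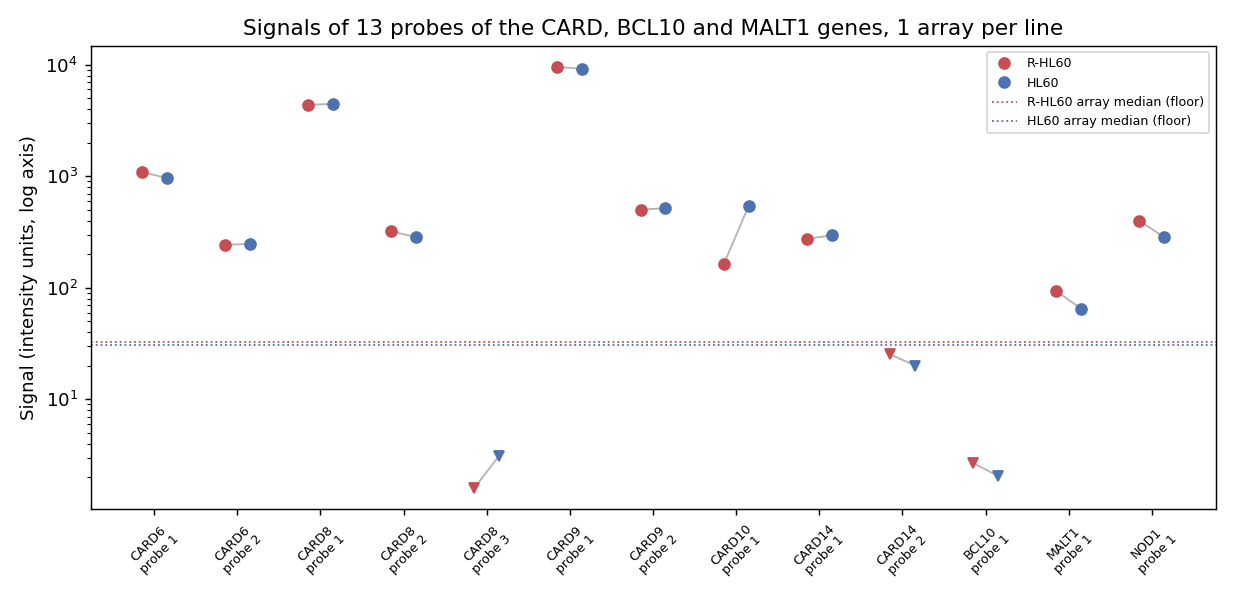
Signal of each of the 13 probes (log axis, intensity units) on the R-HL60 array and the HL60 array, with dotted lines at the array medians of 32.8 and 30.7; triangles are probes below the floor on both arrays. The R-HL60 point of CARD10 sits far under its HL60 point, MALT1 and NOD1 sit slightly above theirs, and BCL10, 1 CARD8 probe and 1 CARD14 probe lie under the floor.

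Among the sensors, NOD1 was slightly higher in R-HL60 and CARD8 was nearly equal in both lines. NOD1 gave 399 in R-HL60 and 283 in HL60 on 1 probe, a log2 difference of 0.49. That was 3.19 times the probe-to-probe SD of 0.15 at its brightness, and 5.06% of genes of like brightness differed as much. CARD8 gave 4368 in R-HL60 and 4457 in HL60 on its brightest probe, a difference of -0.04, and 320 in R-HL60 and 285 in HL60 on its second, a difference of 0.16. The dimmest CARD8 probe was below the floor, at 1.60 in R-HL60 and 3.12 in HL60. The transcript CARD8-AS1, named as antisense to CARD8, gave 3438 in R-HL60 and 3638 in HL60.

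CARD6 gave 1090 in R-HL60 and 967 in HL60 on its brighter probe, a log2 difference of 0.16, and 243 in R-HL60 and 247 in HL60 on its other, a difference of -0.04. In CARD6, CARD8 and CARD9, the 3 members with a pair of measured probes, the probes lay on opposite sides of 0, with gaps of 0.20, 0.20 and 0.10. Over all 3668 genes with 2 measured probes, 32.5% had probes on opposite sides of 0, and the median gap was 0.12. Differences of this size therefore fall within what different probes of a gene give on these arrays. At a lower threshold of 1.5-fold CARD10 was still the single member called, where 4.91% of all genes passed.

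**Figure D2:**
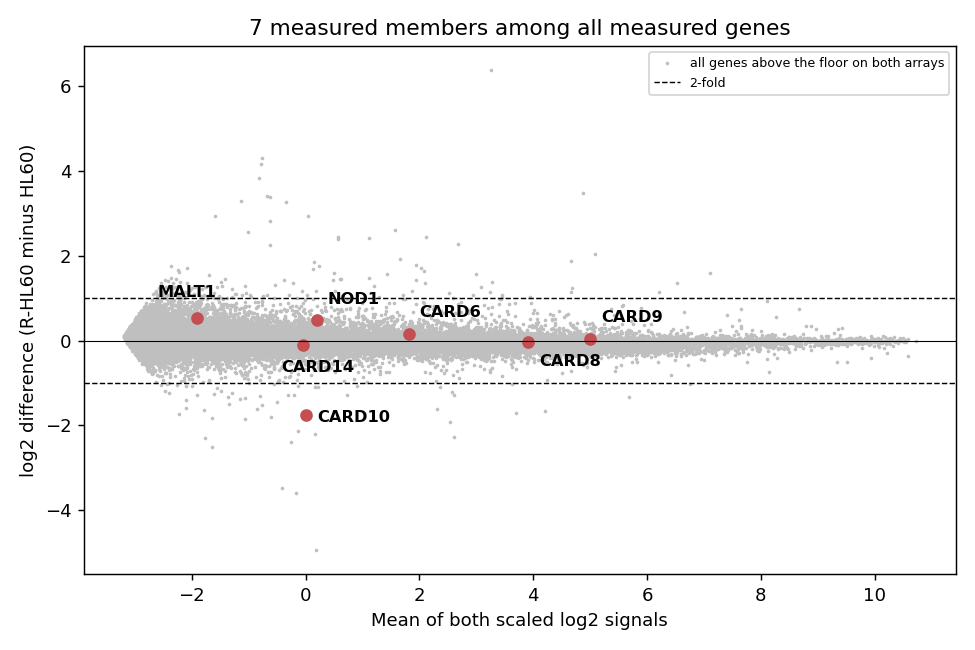
Log2 difference (R-HL60 minus HL60) against the mean scaled log2 signal for the 21839 genes read above the floor in both lines (grey) and the 7 measured members (red), with dashed lines at 2-fold. CARD10 lies at -1.75 under the grey band, MALT1 at 0.52 sits in the wide, dim part of the band, and CARD8 and CARD9 lie close to 0.

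With 1 array per line, likeness of pattern is only nearness in both levels. The 3 protein-coding genes nearest to CARD10 were PTPRS, a receptor tyrosine phosphatase, ELANE, the neutrophil elastase, and DLX4, a homeobox factor. PTPRS had 127 in R-HL60 and 556 in HL60, at a distance of 0.35 over both log2 levels, but its log2 difference of -2.14 on that probe was -1.42 in the mean of all its probes. ELANE was at a distance of 0.38. DLX4 had 163 in R-HL60 and 398 in HL60, at a distance of 0.44.

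Markers of other cell types were also read, among them those in which CARD10 and CARD14 are best known. Of 7 keratinocyte and epithelial markers, KRT8 alone was above the floor, and KRT5, KRT14, KRT1, TP63, EPCAM and CDH1 were below it on both arrays. The summed signal of the 7 was 998 in R-HL60 and 871 in HL60, nearly all of it from KRT8. Of 5 endothelial markers, CDH5, VWF and KDR were above the floor, with a summed signal of the list of 282 in R-HL60 and 283 in HL60. The 5 fibroblast markers summed to 67.2 in R-HL60 and 57.8 in HL60, with DCN above the floor in R-HL60 alone. The 5 monocyte markers summed to 495 in R-HL60 and 521 in HL60, with FCGR3A below the floor. The 7 lymphoid markers summed to 9364 in R-HL60 and 6810 in HL60, mostly from CD3D at 6201 in R-HL60 and 3923 in HL60, with PAX5 below the floor. The part of any other cell type in the result for CARD10 was not tested.

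The rest of the pathway was read from 6 lists of 86 genes in all, of which 72 cleared the floor in either line. Of these, 8 were past 2-fold in the higher direction in R-HL60 and 0 in the lower, with a median difference of 0.01 against -0.03 for all measured genes. Over all genes, 0.786% were at least 2-fold higher, and 1.08% were past 2-fold in either direction. At that share a count of 0 is common in a list this short, so nothing is read from such a count. The lists were drawn up with earlier results of these arrays known, and several of the 8 genes had already been seen to differ.

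Upstream of the scaffolds, 0 of 14 genes measured on both arrays reached 2-fold, where 1.08% of all genes did. The list median, which includes a bound for CLEC7A, was 0.03. SYK and PRKCD, the kinases that link C-type lectin receptors to CARD9, had differences of -0.02 and 0.03. SYK gave 16126 in R-HL60 and 16296 in HL60. TRIM62, a ubiquitin ligase for CARD9, differed most among those read on both arrays, by 0.70, with 55.7 in R-HL60 and 34.2 in HL60, both close to the floor, and by 0.32 with 50 units added. CLEC7A, which encodes the beta-glucan receptor Dectin-1, was above the floor in R-HL60 alone, at 58.7 against 25.9 in HL60. Its bound, taken against the HL60 floor, was 1.90-fold higher in R-HL60, so whether CLEC7A reached 2-fold is not known. With 50 units added its signal was 1.43-fold higher. LPAR1 and AGTR1, receptors that signal through CARD10, were below the floor on both arrays, and the thrombin receptor gene F2R was close to it, at 42.7 in R-HL60 and 45.6 in HL60.

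Downstream of BCL10 and MALT1, 0 of 19 measured genes reached 2-fold, where 1.08% of all genes did, and the median was -0.04. TRAF6, the ubiquitin ligase that MALT1 recruits, gave 617 in R-HL60 and 777 in HL60, a difference of -0.34. By brightest probe, the largest difference was that of NFKB1, the p105 precursor of the p50 subunit, at 0.48, with 3836 in R-HL60 and 2733 in HL60. The IkB kinase subunits IKBKB, CHUK and IKBKG had differences of -0.18, -0.17 and 0.11 by their brightest probes. The other measured IKBKB probe went the opposite way, with a difference of 0.50, so no direction is read for IKBKB.

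Of 9 measured genes listed as MALT1 protease substrates, 4 were past 2-fold higher in R-HL60, against 0.786% of all genes. The other 5 were nearly equal. CYLD, a deubiquitinase, gave 25699 in R-HL60 and 305 in HL60. TNFAIP3, the ubiquitin-editing enzyme A20, gave 2972 in R-HL60 and 545 in HL60, a difference of 2.44. RELB, a subunit of the non-canonical NF-kB pathway, had a difference of 2.05. ZC3H12A, the RNase Regnase-1 that degrades inflammatory mRNAs, gave 2194 in R-HL60 and 702 in HL60, which is 3.11-fold higher. Each of these 4 genes had 1 probe. RC3H1, RC3H2, RBCK1, MAP3K14 and N4BP1 lay between -0.11 and 0.06, and NFKBIZ was below the floor. These are transcript signals, and cleavage by MALT1 was not measured.

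Among 19 other measured CARD genes, 4 were past 2-fold higher and 0 past 2-fold lower, with a median of 0.10. The shares over all genes were 0.786% higher and 0.297% lower. BIRC3, an inhibitor of apoptosis, gave 722 in R-HL60 and 39.8 in HL60, a difference of 4.17, and was 8.56-fold higher with 50 units added. IFIH1, the RNA sensor MDA5, had a difference of 1.79. CARD16 and the gene named CARD17 in the files (now CARD17P), short CARD-only relatives of caspase-1, had differences of 1.04 and 1.26. CARD16 gave 661 in R-HL60 and 318 in HL60, and CARD17 gave 135 in R-HL60 and 56.3 in HL60. Both were under 2-fold with 50 units added, at 1.92-fold and 1.73-fold. Their sequences closely resemble that of CASP1, which had a difference of 0.89. Whether their probes separate these transcripts was not tested.

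The measured genes of the NOD1 and CARD8 lists, which hold direct partners, peptide transporters and inflammasome products, were within 2-fold. The share past 2-fold was 1.08% over all genes. Of 7 measured genes of the NOD1 list the median was 0.01, and RIPK2, its kinase, gave 3642 in R-HL60 and 3217 in HL60, a difference of 0.17. SLC15A3, a lysosomal peptide transporter, had the largest difference among them, 0.69, with 272 in R-HL60 and 168 in HL60. NOD2 was below the floor on both arrays. Of 8 measured genes of the CARD8 list the median was 0.05. IL1B, the cytokine matured by caspase-1, came nearest to 2-fold at 0.97, with 4383 in R-HL60 and 2219 in HL60, and reached 1.03 under quantile normalization, which gives the same value as the authors' table. DPP8 and DPP9, the peptidases that hold CARD8 inactive, had differences of 0.02 and -0.21.

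**Figure D3:**
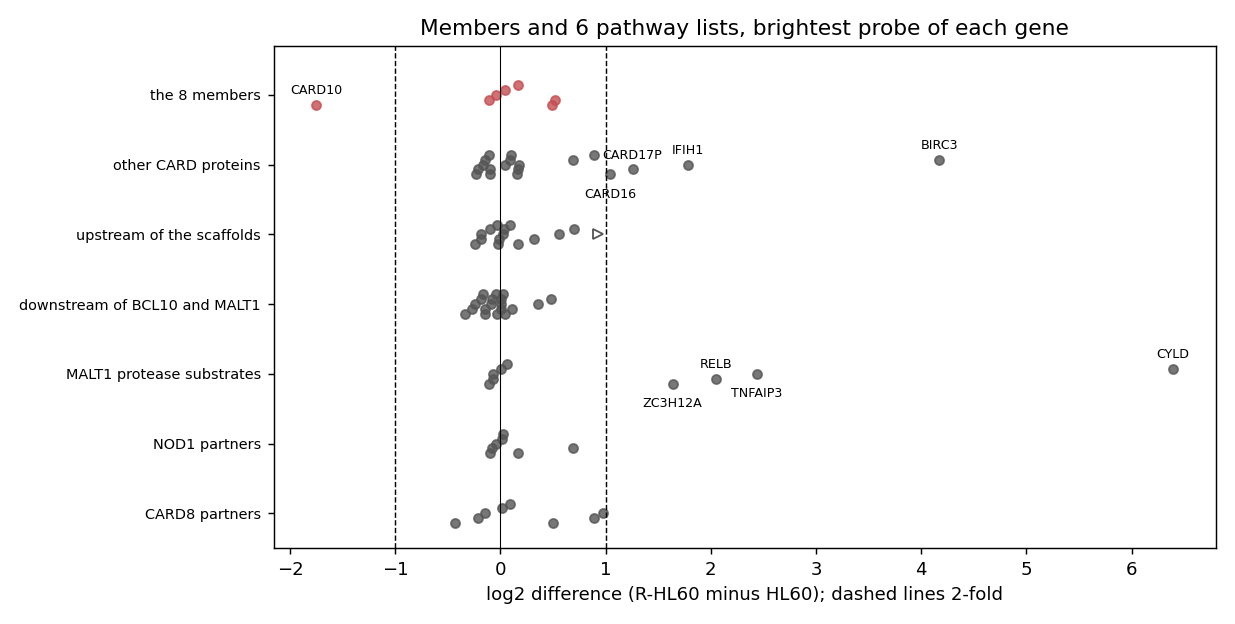
Log2 difference (R-HL60 minus HL60) of each gene above the floor on both arrays, by its brightest probe, for the members and the 6 pathway lists; the open triangle is the bound for CLEC7A and dashed lines mark 2-fold. CARD10 is the single gene left of -1, and the genes right of 1 belong to the substrates of MALT1 (CYLD, TNFAIP3, RELB, ZC3H12A) and to other CARD genes (BIRC3, IFIH1, CARD16 and CARD17, drawn under its current name CARD17P).

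The position of the members on the chromosomes was compared through the 5 nearest measured protein-coding genes on each side, in the gene order of GRCh38.p14. Around CARD10 on chromosome 22 the 10 neighbours had a median difference of 0.02 and ran from -0.20 (CYTH4) to 0.48 (LGALS1). CARD10 thus lay far outside the range of its neighbours. Around MALT1 on chromosome 18, 9 of 10 neighbours had a difference above 0, with a median of 0.35. Over all genes measured on both arrays, 9347 of 21839 had a difference above 0. The neighbours of MALT1 ran from -0.46 for ZNF532 to 0.99 for PMAIP1, which encodes the pro-apoptotic protein NOXA. Of these neighbours, ST8SIA3, ONECUT2, RAX and ZNF532 were dimmer than MALT1 on both arrays. FECH and NARS1, on the side of MALT1 away from PMAIP1, had differences of 0.58 and 0.50, near the 0.52 of MALT1. WDR7, LMAN1 and SEC11C, also brighter than MALT1, had smaller differences of 0.37, 0.25 and 0.13. The difference of MALT1 lay within the range of its neighbours, as did those of CARD6, CARD8, CARD9, CARD14 and NOD1 within theirs. Around the other 6 members the neighbours' medians ran from -0.10 at CARD9 to 0.06 at NOD1. Gene copy number was not measured.

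**Figure D4:**
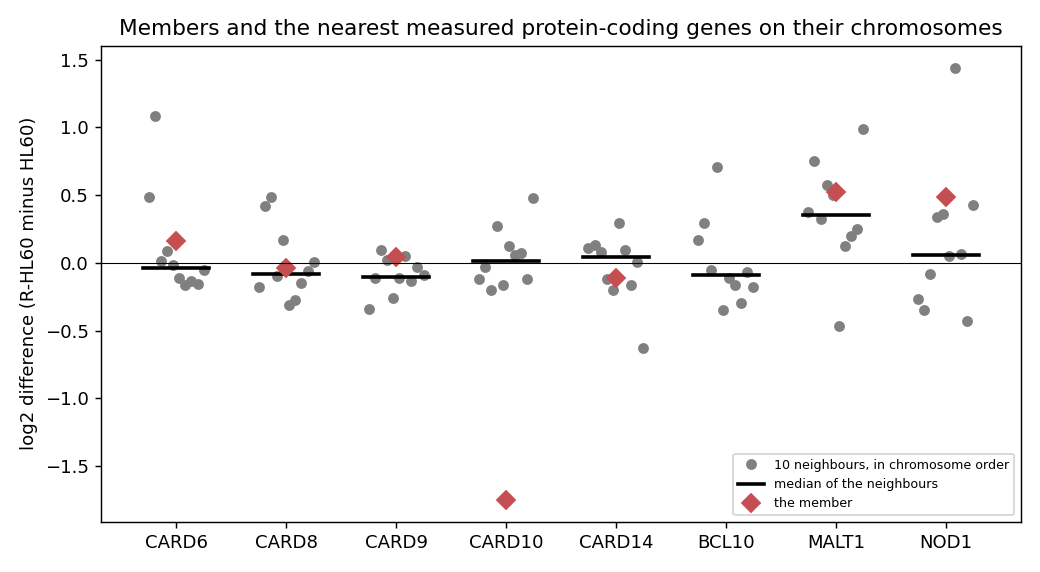
Log2 difference (R-HL60 minus HL60) of each member (red diamond; none for BCL10) and of its 10 nearest measured protein-coding neighbours in chromosome order (grey), with the neighbours' median as a black bar. MALT1 sits among neighbours whose median is 0.35, while CARD10 at -1.75 lies under neighbours whose median is 0.02.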

How the data were processed

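Total RNA of R-HL60 and HL60 was labelled with Cy3 and read on 1 Agilent one-colour array per line, per the labels' protocols. Agilent Feature Extraction 10.7.3.1 is named per the submitters' processing notes. The deposited file of each array holds 1 linear intensity per probe with a gene name; the scanner column, background treatment and genome build are not given in the sources used here. A table of normalized intensities deposited by the authors served as an alternative; its method is not stated, its member differences equal those of quantile normalization, and both columns differ by at most 1.17% at any rank.

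From these, each log2 intensity had the array's 75th percentile subtracted. The probe with the highest mean stood for a gene, and every member probe is printed. Values above the array median on 1 array gave a bound, taken against the floor or, where higher, the dimmer value itself. Of 43317 names, 21081 were current symbols and 1567 were updated through RefSeq. The number of arrays limits the precision, and no test was possible. The probe-to-probe SD was taken in 5 bins of brightness.

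Members and lists were chosen with earlier results of these data known, and 1 listed gene is not reported here. Named genes were all members, from each list the genes past 2-fold or the largest difference, RIPK2, TRAF6 and NOD2, and the 3 genes nearest to a member past 2-fold; other list genes, the marker genes and the chromosome neighbours were chosen for naming with values in view. Other settings were quantile normalization, median scaling, the authors' table, an offset of 50, the mean of all probes, floors at the 40th and 60th percentile and 1.5-fold. On simulated data for R-HL60 against HL60 with 43270 genes, 100 of 100 genes changed 4-fold passed 2-fold. Of genes changed 2.5-fold, 98 of 100 passed, and 0 of 22789 unchanged genes did. No variation between cultures was simulated, and these counts follow from the noise that was put in. They therefore give no rate of false calls on these arrays, where the probe-to-probe SD was 0.28 in the dimmest bin. Nothing is read from the simulation for dim members such as MALT1. Python 3.11.15, numpy 2.4.6, pandas 2.3.3 and matplotlib 3.10.9 were used.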

Additional observations from a re-analysis of the deposited data

How the results depend on the processing

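Member counts and list counts were recomputed under 8 other settings. List medians and the differences of the 7 measured members were recomputed under 7 of them, as a threshold does not alter them, and BCL10 had no value under any. Quantile normalization and the authors' table gave the same member differences and so act as 1 setting. Of 155 recomputed values, 145 stayed close (within the probe-to-probe SD, or within 1.5 times for a count) and 10 moved. A change of sign was scored only for differences past 2-fold, here those of CARD10, and its sign held. CARD10 was the only member called under all of them, from -1.84 to -1.49 on the log2 scale. Some of these settings could not move it. With 1 probe, CARD10 has the same value in the mean of all probes, and a 1.5-fold threshold is looser. Both other floors also left its difference at -1.75, so these settings add no check of CARD10. The lowest fold of CARD10 came with the offset of 50 units, at -1.49. The near-zero differences of CARD8, CARD9 and CARD14 fell on either side of 0 across settings, with -0.28 to 0.02 for CARD8, -0.05 to 0.11 for CARD9 and -0.20 to 0.11 for CARD14. In the mean of all probes, which includes probes below the floor, CARD8 was at -0.28 and CARD14 at 0.11. The number of genes past 2-fold was 1 for the CARD8 list under quantile normalization and 1 in the authors' table, 2 for other CARD genes with the offset and 1 for genes upstream of the scaffolds with the floor at the 40th percentile. At 1.5-fold it was 2 for genes upstream, 1 for the NOD1 list and 2 for the CARD8 list. For 17 other named genes, 108 of 118 recomputed differences stayed within the probe-to-probe SD and 10 moved, most of them with the offset. No paired analysis was possible because each line has 1 array. Depth here means signal over the floor, which is the array median and not a measured background. BCL10, 1 of 3 CARD8 probes and 1 of 2 CARD14 probes lay below it on both arrays, and MALT1 was dim.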
